A study of Mus musculus with 200 samples.

Results

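The embryos described here are the N2 mouse embryos that were either heterozygous (B6/Cast) or homozygous (B6/B6) at *H2-K1*, a gene of the major histocompatibility complex (MHC) on chromosome 17. They were chosen by their deposited genotype code at *H2-K1*, which is 0.5 for heterozygous and 1 for B6/B6 embryos, and not by expression. Of 154 genotyped N2 embryos, 68 were heterozygous, 85 were B6/B6 and 1 was not called. The N2 embryos came from a backcross to C57BL/6J (B6) of F1 animals, themselves the offspring of B6 mothers and CAST/EiJ (Cast) fathers. In 1 backcross the mother was B6 and the father F1, and in the other the mother was F1 and the father B6. Every N2 embryo therefore carried a B6 copy of each autosomal gene, and only the copy from the F1 parent could be Cast. Single whole embryos were harvested at E11.5, sequenced by 3SEQ, which reads the 3′ ends of polyadenylated transcripts, and counted on 22033 genes. The 16 F1 embryos of the reciprocal B6 and Cast crosses, 8 per cross, were used for the share of reads from each allele. They carried a Cast copy at every autosomal gene and were not used to choose or compare the N2 groups.

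The MHC encodes the class I and class II molecules that present peptides to T cells, together with the proteasome subunits, peptide transporters and chaperones that prepare those peptides. *H2-K1* and *H2-D1* encode the classical (class Ia) heavy chains, which pair with beta-2-microglobulin from another chromosome. Class Ib genes encode related, less polymorphic heavy chains, and the class III interval between class II and *H2-D1* holds complement, cytokine and many unrelated housekeeping genes. Inbred strains differ strongly over the MHC, and class I genes are expressed at low levels in early embryos. *H2-K1* lies at chr17:34132962-34137278 and *H2-D1* at chr17:35399675-35404444 in mm9.

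The promoters of 3 class I genes are shown because their differences between genotypes were not alike, and that of *Glo1* because it had the smallest p of all genes. They are the B6 reference sequence of RefSeq in GRCm38.p6, 300 bases around the annotated start each, and the Cast sequence was not analysed here. Capitals mark GGGGATT and ATTCCCC, the overlapping parts of the NF-kappaB site called enhancer A, TTTCACT from the interferon-stimulated response element, TGACG from the X2 box, ATTGG or its complement CCAAT from the Y box, and TATAA, all searched on both strands.

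H2-K1, chr17:34000298-34000597, minus strand: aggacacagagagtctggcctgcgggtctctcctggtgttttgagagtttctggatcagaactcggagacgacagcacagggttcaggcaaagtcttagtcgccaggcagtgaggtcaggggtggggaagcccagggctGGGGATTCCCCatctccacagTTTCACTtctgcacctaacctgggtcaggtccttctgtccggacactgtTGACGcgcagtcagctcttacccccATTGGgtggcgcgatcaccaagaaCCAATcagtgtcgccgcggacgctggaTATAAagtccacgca
H2-D1, chr17:35262844-35263143, plus strand: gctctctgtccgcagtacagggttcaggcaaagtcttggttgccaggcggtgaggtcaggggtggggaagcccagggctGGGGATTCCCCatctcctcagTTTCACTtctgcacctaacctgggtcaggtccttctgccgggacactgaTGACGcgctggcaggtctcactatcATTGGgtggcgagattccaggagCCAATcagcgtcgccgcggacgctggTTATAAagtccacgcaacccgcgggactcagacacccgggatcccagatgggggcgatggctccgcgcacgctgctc
H2-Q7, chr17:35438905-35439204, plus strand: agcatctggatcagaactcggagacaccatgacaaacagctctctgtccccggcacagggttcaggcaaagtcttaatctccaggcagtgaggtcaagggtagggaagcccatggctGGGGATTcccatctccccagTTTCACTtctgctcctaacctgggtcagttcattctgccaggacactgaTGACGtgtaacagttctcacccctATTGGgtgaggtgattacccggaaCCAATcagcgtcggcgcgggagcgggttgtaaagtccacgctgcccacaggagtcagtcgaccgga
Glo1, chr17:30612610-30612909, minus strand: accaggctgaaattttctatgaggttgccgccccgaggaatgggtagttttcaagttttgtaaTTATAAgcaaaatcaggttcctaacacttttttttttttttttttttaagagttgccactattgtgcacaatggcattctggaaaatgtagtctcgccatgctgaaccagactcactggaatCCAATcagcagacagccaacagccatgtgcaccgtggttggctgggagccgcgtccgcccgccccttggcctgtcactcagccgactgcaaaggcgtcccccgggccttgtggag

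RefSeq lists 2 starts for *H2-K1*, of which 1 is shown. Among all 32851 promoters in the table, 3.1% held GGGGATT, 3.38% ATTCCCC, 4.32% TTTCACT, 20.8% TGACG, 37.4% ATTGG and 24.9% TATAA. *H2-K1* and *H2-D1* held all 6 in this window, *H2-Q7* held neither ATTCCCC nor TATAA, and *Glo1* held only the Y box and TATAA letters. These matches are a description of the letters and not of binding.

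Depth and stage overlapped between the groups. The 68 heterozygous embryos had 488220 to 5370322 reads on genes with a median of 2280802, and the 85 B6/B6 embryos had 245220 to 3885300 with a median of 2308871 (permutation test of log2 depth, two-sided p = 0.729). The somite number was 48.6 ± 2.76 (SD) in heterozygous and 49.0 ± 3.18 in B6/B6 embryos (permutation test, two-sided p = 0.499). All 14 lanes held both genotypes, with 3 to 8 heterozygous embryos each. Females, taken as embryos with at least 5 RPM (reads per 1000000 reads on genes) of *Xist*, were 29 of the heterozygous and 37 of the B6/B6 embryos (Fisher's exact test, two-sided p = 1).

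Heterozygous embryos made up 44.4% of the 153 called embryos (exact Clopper-Pearson 95% interval 36.4% to 52.7%, exact binomial test against equal shares, two-sided p = 0.196). With B6 mothers the groups were equal, at 44 and 44 embryos. With F1 mothers 24 embryos were heterozygous and 41 B6/B6, a share of 36.9% (exact binomial p = 0.0464, without adjustment for the 3 shares tested). Fisher's exact test of the difference between the 2 backcrosses gave a two-sided p of 0.139.

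Across the genome, the genes that differed between the genotypes lay on chromosome 17. The edgeR quasi-likelihood test with lane and somite number as covariates used the 146 embryos with a somite number, 66 heterozygous and 80 B6/B6, and the 10035 genes whose mean level reached 5 RPM. It called 47 genes at a Benjamini-Hochberg adjusted p under 0.05, which is 0.468% of the genes tested. All 47 were among the 479 genes tested on chromosome 17, of which they are 9.81%. There, 27 genes (5.64%) were higher in heterozygous embryos and 20 (4.18%) were lower. The median size of the 47 differences was 0.43 on the log2 scale, and 14 genes changed by at least 1.5-fold. Changes of at least 2-fold were seen in 3, *Rsph1*, *A930015D03Rik* and *Kifc1*, all higher in heterozygous embryos. The B6/B6 means of *Rsph1* (3.62 RPM) and *A930015D03Rik* (2.81) lay under 5 RPM, so both passed the minimum only through heterozygous embryos. Their direction is thus partly set by the minimum. Below it, large differences went both ways (*H2-Q7* log2 -1.46, *H2-Bl* 1.62). In whole embryos, a change in the number of expressing cells and a change in RNA per cell cannot be told apart.

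*Glo1* encodes glyoxalase 1, which detoxifies methylglyoxal, and lies 83 genes before *H2-K1* in file order, at chr17:30729811-30749604. It ranged from 134.6 to 478.3 RPM with a median of 313.7 in B6/B6 embryos and from 126.3 to 888.9 with a median of 535.8 in heterozygous embryos. Of the 66 heterozygous embryos, 46 lay above the highest B6/B6 embryo, and the low ends of the groups overlapped. The fitted fold change was 1.61 (log2 0.69 ± 0.042 SE, edgeR adjusted p = 5.62e-30). The log2 difference in *Glo1* was 0.73 with B6 mothers and 0.64 with F1 mothers.

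*Rsph1*, a component of the radial spokes of motile cilia, showed the largest difference among the genes called. Its level was 0 to 10.26 RPM with a median of 3.59 in B6/B6 embryos and 0 to 17.9 RPM with a median of 10.64 in heterozygous embryos. The heterozygous median lay above the highest B6/B6 value, 36 of 66 heterozygous embryos did so, and both groups held an embryo without a read. The fold change was 2.99 (log2 1.58 ± 0.10 SE, edgeR adjusted p = 4.15e-29).

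*Msh5*, a MutS homologue of meiotic recombination in the class III interval, ranged from 2.53 to 12.23 RPM (median 7.00) in B6/B6 and from 4.82 to 24.77 RPM (median 13.92) in heterozygous embryos. In heterozygous embryos the level was thus mostly above the B6/B6 range, with 42 of 66 beyond its highest value. The fold change was 1.82 (log2 0.87 ± 0.075 SE, edgeR adjusted p = 1.54e-18).

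*Spsb3*, which encodes a SPRY and SOCS box protein, was the called gene with the largest decrease. It had a median of 43.13 RPM (7.99 to 106.8) in B6/B6 and of 25.28 RPM (3.61 to 61.74) in heterozygous embryos. Only 1 of 66 heterozygous embryos lay above the B6/B6 median, although the ranges overlapped. The fold change was 1.90 downwards (log2 -0.92 ± 0.083 SE, edgeR adjusted p = 2.04e-17). *Eme2*, which overlaps *Spsb3* on the other strand, moved the other way by 0.31 (SE 0.061, edgeR adjusted p = 0.000631), and whether the counting used strand is not given in the sources used here.

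**Figure D1:**
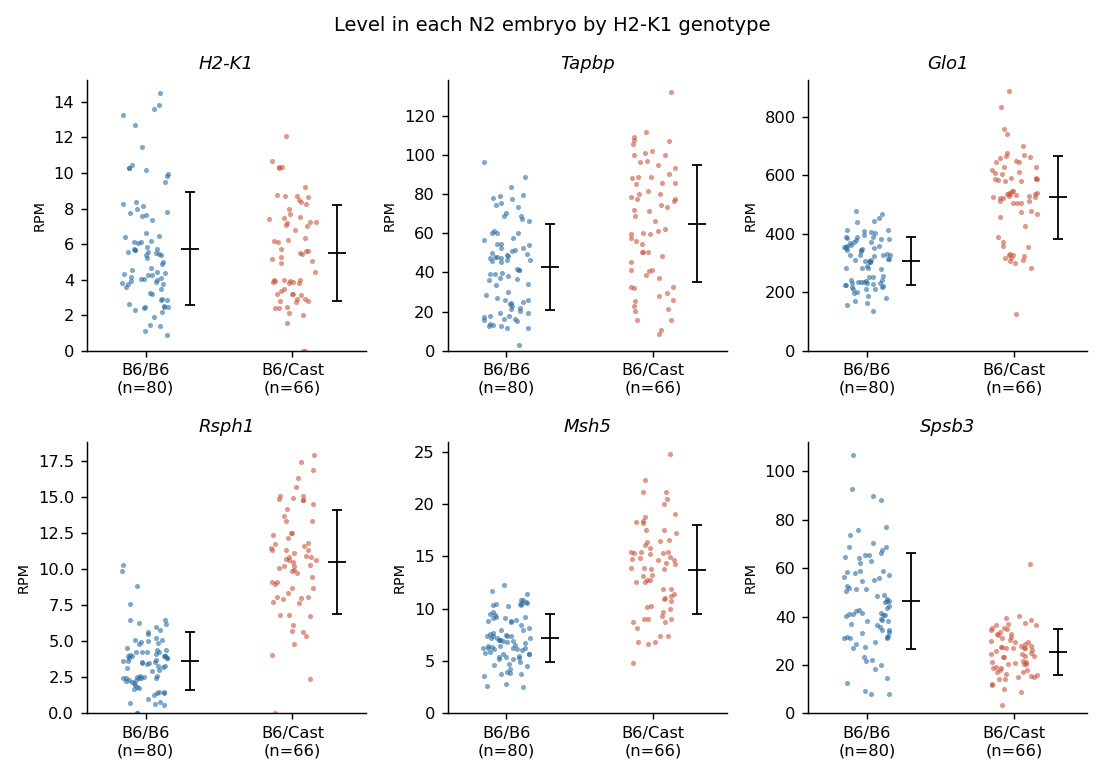
Level in RPM (y axis) of 6 genes in each N2 embryo, by genotype at *H2-K1* (80 B6/B6 and 66 B6/Cast embryos, 1 point each). Black marks and bars are the mean and SD, and the reader should see overlapping clouds for *H2-K1*, against *Glo1*, *Rsph1* and *Msh5* with 46, 36 and 42 B6/Cast embryos above every B6/B6 embryo.

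*H2-K1* itself was not called. It ranged from 0.859 to 14.52 RPM with a median of 5.31 in B6/B6 embryos and from 0 to 12.08 with a median of 5.37 in heterozygous embryos, and 33 of 66 heterozygous embryos lay above the B6/B6 median. The log2 difference was -0.011 ± 0.12 (SE, edgeR adjusted p = 1.00, permutation test within lanes, two-sided p = 0.921). *H2-D1* was lower by 0.32 on the log2 scale (SE 0.11). Its B6/B6 embryos ranged from 0.656 to 22.9 RPM with a median of 8.78, its heterozygous embryos from 0 to 18.29 with a median of 6.90, and 43 of 66 heterozygous embryos lay below the B6/B6 median. That difference missed the threshold over all genes (edgeR p = 0.00447, adjusted p = 0.561). The permutation test within lanes gave a two-sided p of 0.00365, or 0.00635 adjusted over the 47 genes named by rule, which are not the 47 called genes. Of the named genes 23 were called, most of them picked for a small p. Adjustment over that set is therefore far milder than over all genes and does not replace it. Neither *H2-K1* nor *H2-D1* had an allele vote in F1 embryos. A vote is the part of a read that SNPs assign to B6 or Cast, so their code rests on the neighbouring genes and their alleles could not be measured apart.

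Of the 5 genes for peptide processing in the MHC, 3 were tested and *Tapbp* rose. *Tapbp* encodes tapasin, which holds class I molecules at the peptide transporter, and lies 9 genes before *H2-K1*. It had a median of 43.75 RPM (2.93 to 96.28) in B6/B6 and of 67.65 RPM (8.68 to 132.1) in heterozygous embryos, 12 of which lay above the highest B6/B6 embryo. The fold change was 1.37 (log2 0.46 ± 0.078 SE, edgeR adjusted p = 2.03e-05), with log2 differences of 0.62 with B6 mothers and 0.29 with F1 mothers, where the call was lost (edgeR interaction of genotype and mother, p = 0.0158, unadjusted). It overlaps *Zbtb22*, which is annotated on the same strand, so that reads could be shared between them, and it had no F1 vote. The immunoproteasome subunits *Psmb8* (log2 0.0077 ± 0.098 SE) and *Psmb9* (0.037 ± 0.091) were not called, and their B6 share of F1 votes was 0.495 and 0.492. *Tap1*, at 4.42 ± 4.19 RPM (SD) in B6/B6 and 3.61 ± 3.47 in heterozygous embryos, and *Tap2*, at 0.47 ± 0.587 and 0.649 ± 0.685, fell below 5 RPM.

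None of the 23 class Ib genes and none of the 10 class II genes in the tables reached 5 RPM, and 8 class Ib genes had no read in any of the 146 embryos. The summed level of class Ib genes was 4.08 to 35.88 RPM with a median of 13.06 in B6/B6 and 1.32 to 20.19 with a median of 9.44 in heterozygous embryos. This sum counts the same reads under both *H2-Q7* and *H2-Q9*, and under both *H2-T9* and *H2-T22*, which raises it in both groups. The summed level of class II genes was 0 to 13.75 RPM with a median of 5.81 in B6/B6 and 0 to 10.78 with a median of 5.81 in heterozygous embryos. In the fit without the 5 RPM minimum, which took genes with at least 10 reads in all, 3 of 11 class Ib genes and 0 of 7 class II genes were called, and 69 of 823 genes on chromosome 17 (8.38%) were. The class Ib calls were *H2-Q7*, *H2-Q9* and *H2-Bl*, and *H2-Q7* and *H2-Q9* share a single count, so they are not separate results. The 11 also hold *H2-T9* and *H2-T22*, which share theirs. *H2-Q7* was at 1.50 ± 1.83 RPM (SD) in B6/B6 and 0.387 ± 0.604 in heterozygous embryos, with a read in 66 of 80 and 30 of 66 embryos (log2 -1.46, edgeR adjusted p = 1.14e-05). *H2-Q9* had the same count as *H2-Q7* in every embryo, as did *H2-T9* and *H2-T22*, so the members of each pair cannot be told apart. *H2-Bl* moved the other way, at 0.228 ± 0.379 RPM in B6/B6 and 0.765 ± 0.919 in heterozygous embryos (log2 1.62, edgeR adjusted p = 4.87e-07). *H2-Q10* (log2 -0.29) and *H2-T23* (log2 0.16) were not called. At these levels the differences rest on a few reads per embryo, and class I genes are so alike in sequence that their reads may be split between copies or lost.

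The class III interval held 33 tested genes, of which 2 rose, 1 fell and 30 were not called, a share near the 9.81% called over chromosome 17, with a median log2 difference of 0.016 beside -0.0087 over all genes. *Nfkbil1*, an IkappaB-like gene, had a median of 16.1 RPM (1.65 to 99.15) in B6/B6 and 27.54 (6.14 to 125.4) in heterozygous embryos, and 58 of 66 heterozygous embryos lay above the B6/B6 median. It rose by 0.74 (SE 0.093, edgeR adjusted p = 4.59e-10), and *Msh5* rose as given above. *Zbtb12*, a zinc finger gene, fell by 0.48 (SE 0.11, edgeR adjusted p = 0.0124), from a median of 156.7 RPM (14.24 to 709.6) to 117.6 (6.32 to 235.5). *Gpsm3*, a regulator of G protein signalling, missed the threshold with -0.22 (SE 0.067, edgeR adjusted p = 0.227). Below 5 RPM, the complement gene *C4a* was at 1.27 ± 0.982 RPM (SD) in B6/B6 and 3.28 ± 2.83 in heterozygous embryos (log2 1.04, edgeR adjusted p = 9.81e-07 without the minimum). Reads of *C4a* may be shared with its near copy *C4b*.

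The extended class II list covers many genes next to *H2-K1*. Of its members 16 were tested, 2 rose and 1 fell, beside 9.81% called over chromosome 17, with a median log2 difference of 0.032. The list also holds *Itpr3*, *Bak1*, *Cuta* and *Phf1*, which lie 143 to 149 genes before *H2-K1* and were not called. *AA388235*, the gene listed just before *H2-K1*, had a median of 30.05 RPM (6.34 to 73.36) in B6/B6 and 15.09 (2.01 to 51.53) in heterozygous embryos. Only 3 of 66 heterozygous embryos lay above the B6/B6 median, and the log2 difference was -0.90 (SE 0.095, edgeR adjusted p = 1.34e-13). *Wdr46*, a nucleolar protein gene 6 genes before *H2-K1*, fell by 0.31 (SE 0.060, edgeR adjusted p = 0.000415). *Vps52*, a subunit of a Golgi tethering complex 3 genes before it, rose by 0.22 (SE 0.049, edgeR adjusted p = 0.00730). *Rps18*, which lies between them and overlaps *Vps52*, had -0.23 (SE 0.10, edgeR adjusted p = 1.00) and *H2-Ke2* had -0.13 (SE 0.075). On the other side, none of the 5 nearest tested genes was called. *Ring1*, a Polycomb subunit, had a log2 difference of -0.068 (SE 0.062), the nuclear receptor gene *Rxrb* 0.043 (SE 0.048), the zinc transporter gene *Slc39a7* -0.011 (SE 0.054) and the bromodomain gene *Brd2* 0.021 (SE 0.060). *H2-Ke6* had 0.093 (SE 0.042), and *Phf1*, a member of the extended list further away, had 0.23 (SE 0.083, edgeR adjusted p = 0.734).

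*Kifc1*, a minus-end directed kinesin 12 genes before *H2-K1*, rose by 1.11 (SE 0.12, edgeR adjusted p = 1.64e-13). Its raw levels overlapped far more than the fit shows, with a median of 9.98 RPM (0 to 53.01) in B6/B6 and 18.61 (0.931 to 89.31) in heterozygous embryos, and only 39 of 66 heterozygous embryos above the B6/B6 median. Without lane and somite number the log2 difference was 0.84 and was not called (adjusted p = 0.0674). *Kifc5b*, a near copy on the same chromosome, may share reads with *Kifc1*.

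The class I framework genes beyond *H2-D1* held 23 tested members and 0 calls, beside 9.81% called over chromosome 17, with a median log2 difference of 0.015. *Cchcr1* had 0.17 (SE 0.053, adjusted p = 0.248), *Ppp1r11* 0.13 (SE 0.049, adjusted p = 0.732), the collagen receptor gene *Ddr1* -0.23 (SE 0.078, adjusted p = 0.504) and *Tcf19* -0.25 (SE 0.10, adjusted p = 1.00), all from edgeR. *A930015D03Rik*, which is in none of the lists, overlaps *H2-T22*, *H2-T23* and *H2-T24* among others. It was at a median of 2.48 RPM (0 to 10.05) in B6/B6 and 7.55 (0 to 17.85) in heterozygous embryos, 21 of which lay above the highest B6/B6 embryo (log2 1.35 ± 0.13 SE, edgeR adjusted p = 9.68e-15).

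Among the 47 genes called were others with known functions and large differences. *Cbs*, the cystathionine synthase of homocysteine metabolism, went from a median of 4.35 RPM (0 to 9.49) to 7.71 (0 to 14.23), a log2 rise of 0.87 (SE 0.10). *Rrp36*, a gene of ribosomal RNA processing, rose by 0.92 (SE 0.11). *Mrpl14*, a mitochondrial ribosomal protein gene, fell from a median of 391 RPM (167.1 to 707.4) to 296.5 (74.51 to 484.9), and 60 of 66 heterozygous embryos lay below the B6/B6 median (log2 -0.46 ± 0.048 SE). *Decr2*, a peroxisomal reductase gene, fell by 0.68 (SE 0.086), *Pla2g7*, the platelet-activating factor acetylhydrolase gene, by 0.61 (SE 0.10) and *Treml1*, a platelet receptor gene, by 0.56 (SE 0.10). *Pknox1*, a homeobox gene, rose by 0.44 (SE 0.075), *Cyp4f13*, a cytochrome P450 gene, by 0.67 (SE 0.093), *Noxo1*, an NADPH oxidase organizer, by 0.53 (SE 0.087) and *Ndufv3*, a subunit of complex I, by 0.31 (SE 0.056). *Cnpy3*, a chaperone of Toll-like receptors, fell by 0.33 (SE 0.059). Each of these 11 genes had an edgeR adjusted p under 0.05. The B6/B6 mean of *Cbs* (4.2 RPM) and the heterozygous mean of *Pla2g7* (4.7 RPM) lay under 5 RPM. Both genes thus passed the minimum only through the group where they were higher, and their direction is partly set by it. All 23 called genes named by rule passed the permutation test within lanes (100000 resamples, adjusted over 47 genes, where 1e-05 is the smallest unadjusted p possible). The same embryos and covariates had called these 23, so this describes them and is no independent check.

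Along the chromosome, the code at *H2-K1* stood for a long haplotype. From a gene's position in file order, the code was the same as at *H2-K1* in 100% of embryos within 25 genes, in 95.2% on average at 201 to 300 genes, in 87.3% at 301 to 400 genes and in 73.2% beyond 400 genes. These averages join 2 unlike sides. Before *H2-K1* the code was the same in 96.12% of embryos at 301 to 400 genes and in 94.09% beyond 400 genes. After *H2-K1* it was the same in 84.94% and 68.85%. At genes of other autosomes it was the same in 40% to 58.9% of embryos, with a median of 50%. In total 100 genes of chromosome 17 had the same code as *H2-K1* in all 146 embryos. The share of tested genes called was 18.5% (5 of 27) within 25 genes of *H2-K1*, 13.6% (3 of 22) at 26 to 50 genes, 21.6% (11 of 51) at 51 to 100 genes, 8.99% (8 of 89) at 101 to 200 genes, 13.7% (14 of 102) at 201 to 300 genes, 7.46% (5 of 67) at 301 to 400 genes and 0.826% (1 of 121) beyond 400 genes, beside 9.81% over the chromosome. Calls lay on both sides of *H2-K1* at each of these distances except within 25 genes, where they lay only before it, and beyond 400 genes, where the single call lay after it. Beyond 400 genes, the 21 tested genes before *H2-K1* held 0 calls and the 100 after it held 1. Before *H2-K1*, the 28 tested genes at 51 to 100 genes held 9 calls, of which 8 were higher in heterozygous embryos. The 47 genes started between 22983664 and 57129687 on chromosome 17 in mm9, with *Zfp945* first and *Clpp* last, apart from *AA388235*, which was not found in the annotation.

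**Figure D2:**
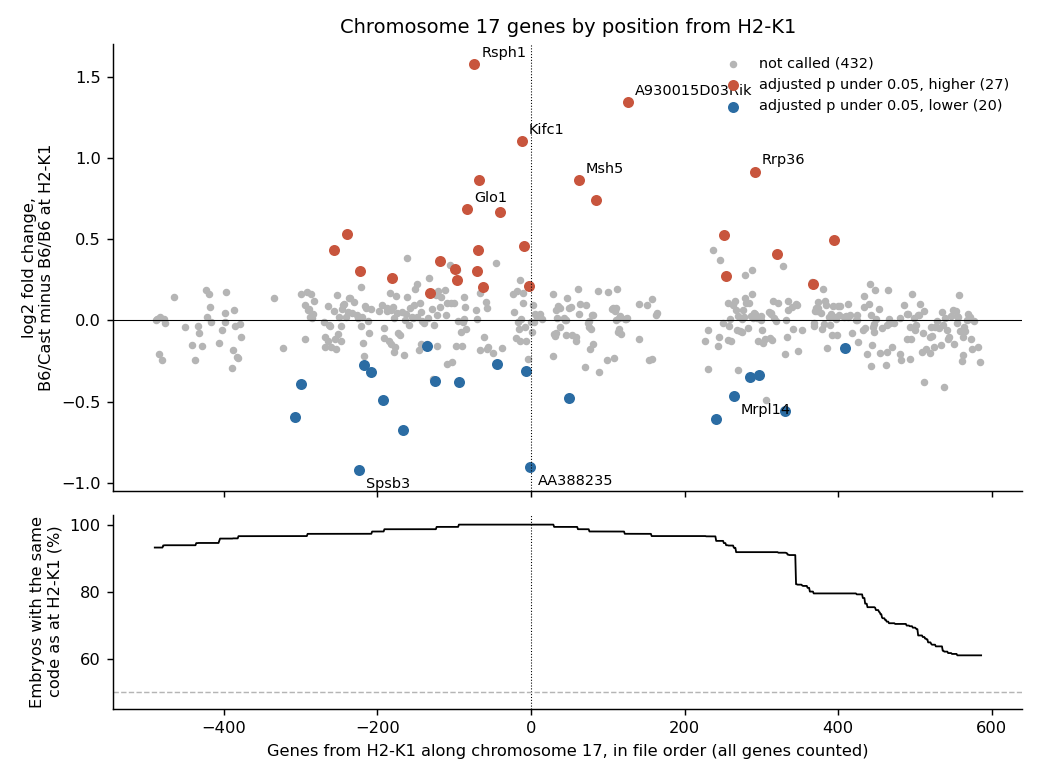
Top, log2 fold change (heterozygous over B6/B6, y axis) of 479 tested genes of chromosome 17 against the number of genes from *H2-K1* in file order, with the 27 called higher in orange, the 20 called lower in blue and the others in grey. Bottom, the share of 146 embryos whose code at a gene was that at *H2-K1*. It is 100% around *H2-K1* and falls towards 61% at the far end after it, while calls spread over both sides.

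Where recombination had separated the gene from *H2-K1*, both codes could be set in a joint fit of log2(RPM + 1). This could be done for 9 called genes, at which at least 10 embryos had another code than at *H2-K1*, and in all 9 the coefficient of the gene's own code was larger in size than that of *H2-K1*. For *Mrpl14* the own code gave -0.48 ± 0.085 (SE) and *H2-K1* -0.070 ± 0.085, with 10 embryos of different code. For *Rrp36* the values were 1.02 ± 0.18 and -0.027 ± 0.18, with 12 embryos. *Shd*, with 29 such embryos, gave 0.33 ± 0.065 and 0.029 ± 0.062, and *Clpp*, a mitochondrial protease gene, with 30, gave -0.27 ± 0.045 and -0.022 ± 0.043. The ribosomal protein gene *Rpl36* gave 0.62 ± 0.14 and 0.16 ± 0.14. The intervals of both codes overlapped for *Treml1* (-0.36 ± 0.20 and -0.23 ± 0.20) and for *Mdfi* (0.33 ± 0.18 and 0.13 ± 0.17). The 9 genes were chosen because they differed by the code at *H2-K1*, so the coefficients are given as a description. For genes within 25 genes of *H2-K1* no embryo had another code, and the effect of 1 gene's code cannot be told apart from that of its neighbours.

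**Figure D3:**
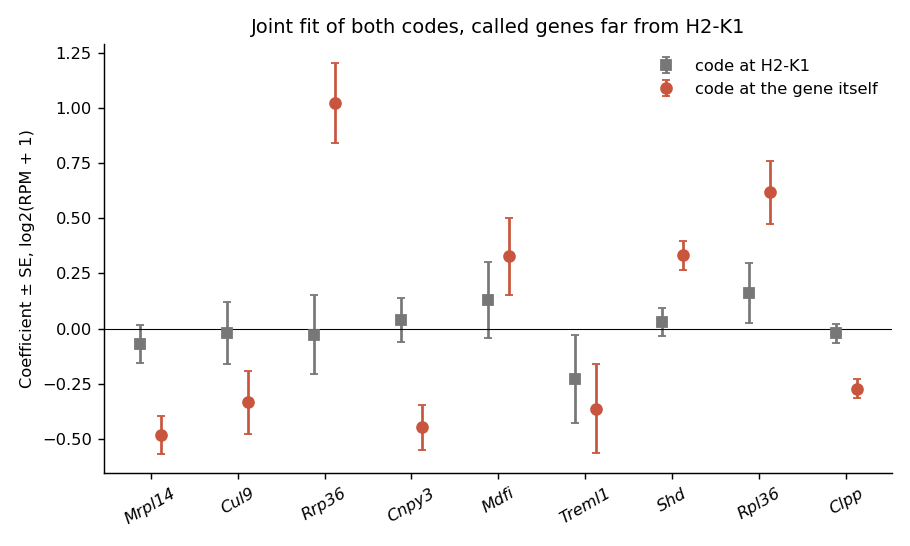
Coefficients with SE (y axis, log2(RPM + 1)) of the code at *H2-K1* (grey squares) and of the code at the gene itself (orange circles) in a joint fit, for the 9 called genes where at least 10 embryos had different codes, ordered by distance from *H2-K1*. The own code has the larger coefficient for each gene, for example -0.48 against -0.070 for *Mrpl14*.

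F1 embryos allowed a comparison with embryos that were not used for the genotype groups. If a gene's level depends only on its own copies, the N2 fold change by its own code predicts the B6 share of F1 votes. This holds because a heterozygous embryo has 1 B6 copy in place of 2. The fold change used was that by the code at *H2-K1*. Where embryos had another code at the gene itself, it is diluted and the predicted share is drawn towards 0.5. This limit applies to the called genes and to the others. Of the 47 called genes, 34 had 20 or more votes in both F1 crosses and a vote in each of the 16 embryos, and 11 had no vote. Those without a vote included *Glo1*, *Rsph1*, *Spsb3*, *A930015D03Rik*, *AA388235* and *Nfkbil1*, for which no comparison could be made. The B6 share of F1 votes lay on the predicted side of 0.5 for 30 of the 34, as it did for 63.9% of 335 genes that were not called, and the median gap between prediction and measurement was 0.069 for the called genes. Across these 34 genes Spearman's rho was 0.781, and it was 0.383 across the 335 others, where points share the embryos and genes are not independent. By an exact sign-flip test over 16 F1 embryos, 186 of 369 tested chromosome 17 genes (50.4%) had a B6 share different from 0.5 at an adjusted p under 0.05, and among the 34 called genes 23 did.

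The gap was small for most of the leading genes with votes. *Mrpl14* had a predicted B6 share of 0.690 and measured shares of 0.700 ± 0.051 (SD, n = 8) in B6 × Cast and 0.714 ± 0.073 in Cast × B6 embryos. *Cbs* had 0.274 predicted and 0.320 ± 0.038 and 0.273 ± 0.032 measured. *Rrp36* had 0.265 predicted and 0.212 ± 0.031 and 0.292 ± 0.081 measured. *Cyp4f13*, with 0.315 predicted, had 0.315 ± 0.026 and 0.344 ± 0.093. *Decr2* (0.799 predicted, 0.738 over all F1 votes), *Pla2g7* (0.763 and 0.815), *Treml1* (0.737 and 0.787) and *Noxo1* (0.346 and 0.371) also lay near each other. For all of these genes the B6 share differed from 0.5 (exact sign-flip test, two-sided, adjusted p = 0.000152, or 0.000240 for *Cyp4f13*), where 3.05e-05 is the smallest unadjusted p possible with 16 embryos.

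Other genes lay further from the prediction. *Msh5*, with 0.274 predicted, had 0.516 ± 0.063 (SD, n = 8) and 0.548 ± 0.094 measured and did not pass the test against 0.5 (exact sign-flip test, adjusted p = 0.190), and in heterozygous N2 embryos its B6 share was 0.494. *Cnpy3*, with 0.630 predicted and 12 embryos of another code than at *H2-K1*, had 0.880 ± 0.027 and 0.834 ± 0.047. *Rrp1b*, with 0.433 predicted and 0 such embryos, had 0.266 over all F1 votes. *Rpl36*, with 30 such embryos, had 0.354 predicted and 0.229 measured. *Clpp*, with 30, had 0.563 and 0.681, and *Shd*, with 29, had 0.428 and 0.421. *Fgd2*, with 0.649 predicted, had 0.485, on the other side of 0.5, and *Cpne5* (0.402 and 0.540) and *Mdfi* (0.377 and 0.541) did so too. *Kifc1*, with 0.232 predicted, differed between the crosses, at 0.637 ± 0.10 in B6 × Cast and 0.374 ± 0.14 in Cast × B6 embryos, and had 0.251 in heterozygous N2 embryos. The crosses also differed in litter, in recorded somite number, which was mostly lower in Cast × B6, and in part of the sequencing runs. A difference between the crosses therefore cannot be told apart from these. Votes come only from positions with SNPs, so a vote share and a total level can read different parts of a transcript.

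**Figure D4:**
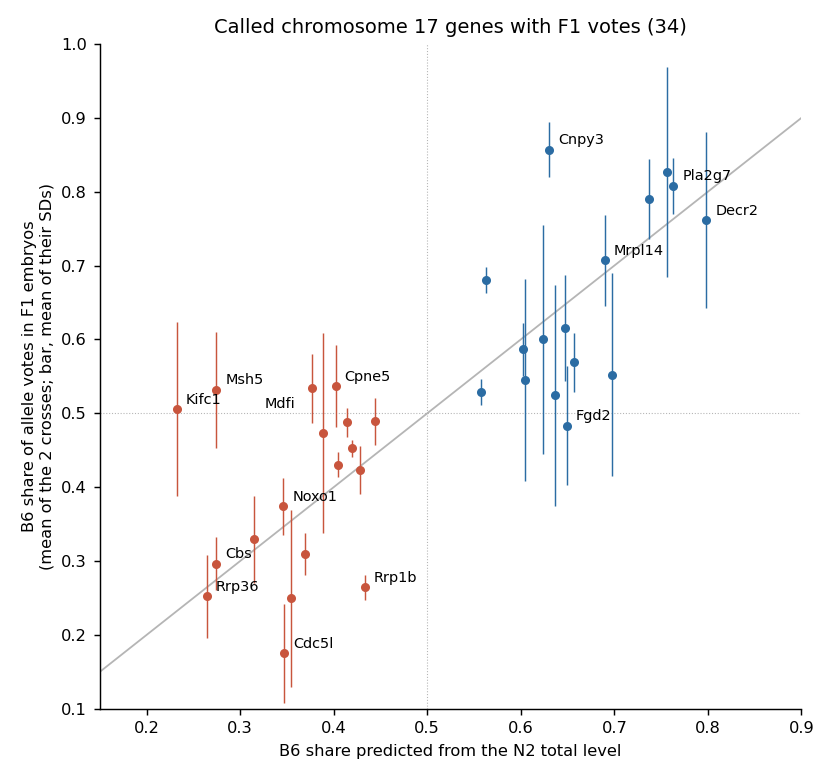
B6 share of allele votes in F1 embryos (y axis, mean of the 2 crosses with the mean of their SDs as bars) against the share predicted from the N2 fold change (x axis) for the 34 called genes with votes, orange where higher and blue where lower in heterozygous embryos. Most points lie near the grey line of equal values, while *Msh5*, *Kifc1*, *Cnpy3* and *Rrp1b* lie off it.

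In N2 embryos, B6 votes were also compared directly. Embryos were grouped by the code at *H2-K1*. Where a gene has the same code, heterozygous embryos have 1 B6 copy and B6/B6 embryos have 2. Equal output per B6 copy then gives a ratio of 0.5 in B6 votes, scaled to the reads of each embryo. Where some embryos have another code at the gene, equal output gives a ratio above 0.5. For the 30 called genes with at least 200 B6 votes the ratio was 0.382 to 0.774, with a median of 0.543, and for 266 genes that were not called the median was 0.570. *Ndufv3*, with the most votes among the genes named by rule, had a ratio of 0.537 ± 0.032 (SE), *Decr2* 0.508 ± 0.050 and *Rrp36* 0.542 ± 0.053. *Msh5* had 0.425 ± 0.082 and *Cnpy3* 0.668 ± 0.044. Of these genes, *Rrp36* and *Cnpy3* each had 12 embryos of another code than at *H2-K1*, *Decr2* and *Msh5* each had 2 and *Ndufv3* had 0. This ratio is not adjusted for lane or for embryos of another code, and it was chosen after the levels had been seen.

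The direction of the differences in called genes was the same in both backcrosses. In separate fits, 46 of 46 called genes with a value in both had the same sign with B6 and with F1 mothers, and 45 of 45 had the same sign in the 2 flowcells. Since the same embryos chose these genes, this describes them and is no independent check. No gene had an interaction of genotype and mother at an adjusted p under 0.05 (edgeR, 0 of 10035, which is 0%, with 165 at an unadjusted p under 0.05), and none had one of genotype and somite number (edgeR, 0 of 10035, which is 0%, with 138). *Rrp36* had 0.65 with B6 mothers and 1.22 with F1 mothers (edgeR interaction p = 0.0106, unadjusted) and *Cbs* 1.06 and 0.65 (p = 0.0328, unadjusted).

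**Figure D5:**
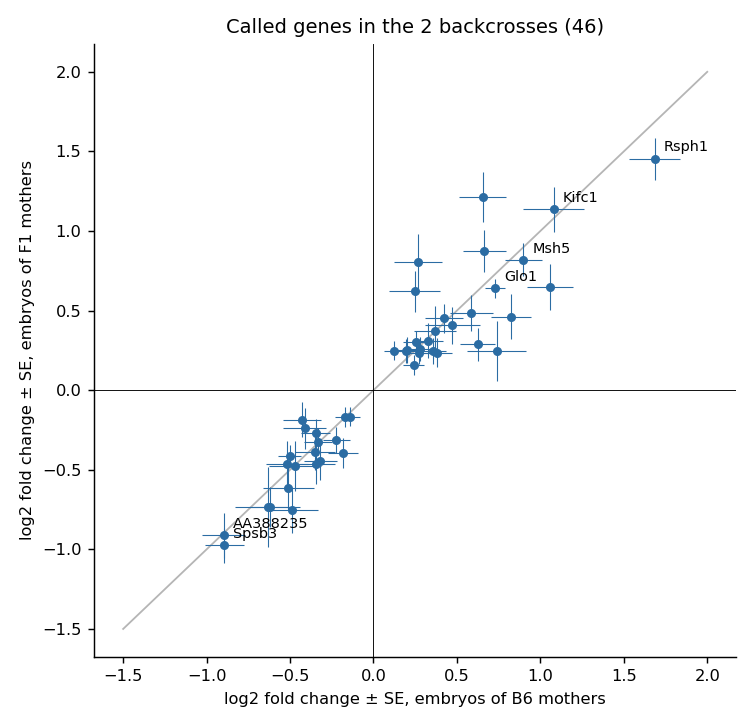
Log2 fold change with SE (heterozygous over B6/B6) of 46 called genes in embryos of B6 mothers (x axis) and of F1 mothers (y axis), each point a gene and the grey line equal values. All 46 points lie in the quadrants of equal sign.

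On other chromosomes, 0 of 9556 tested genes were called (0%) by edgeR, with 298 (3.12%) at an unadjusted p under 0.05, beside 128 of 479 (26.7%) on chromosome 17. The fits with TMM factors or with DESeq2, limma and the rank-sum test after 15 principal components called 1, 1, 0 and 1. The median SE of the log2 difference was 0.090 and its median size 0.056. For 98.6% of these genes the 95% interval lay within a 1.5-fold change. The smallest adjusted p was that of *Bzw1* on chromosome 1, a gene of translation control named after its values were seen. It had 15.06 RPM at the median (0 to 58.24) in B6/B6 and 19.32 (4.39 to 158) in heterozygous embryos, with overlapping ranges (log2 0.45 ± 0.12 SE, edgeR adjusted p = 0.0662). The log2 difference in *Bzw1* was 0.68 with B6 mothers and 0.094 with F1 mothers.

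The lists of loading genes outside the MHC and of interferon response genes held no call, beside 0.468% of all genes tested and 0% on other chromosomes. Of 14 genes for peptide loading outside the MHC, 10 were tested and 0 were called, with a median log2 difference of 0.016. *B2m*, which encodes beta-2-microglobulin, had -0.14 (SE 0.14), from a median of 18.22 RPM (0 to 168.4) in B6/B6 to 8.03 (0 to 213.7) in heterozygous embryos. The chaperone gene *Canx* had -0.075 (SE 0.094), *Hspa5* -0.13 (SE 0.091) and the transcription factor gene *Irf1* 0.066 (SE 0.067). Of 15 interferon response genes, 3 were tested and 0 called, with *Ifitm3* at 0.19 (SE 0.12) and *Stat2* at 0.032 (SE 0.097). Each of these 6 genes had an edgeR adjusted p of 1.00.

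None of the tested leukocyte and endothelial markers was called, beside 0.468% of all genes tested and 0% on other chromosomes. At such shares a list of 7 genes is likely to hold no call. Of 10 leukocyte markers, 7 were tested and 0 called, and their summed level was 198 to 857.7 RPM (median 448.6) in B6/B6 and 238.3 to 776.2 (median 470.4) in heterozygous embryos. Of 8 endothelial markers, 7 were tested and 0 called, with 127.9 to 435.5 (median 238.7) and 141.3 to 372.5 (median 231). None of 9 trophoblast and decidua markers reached 5 RPM, 2 had no read, and their summed level had a median of 0 in both groups, with up to 10.82 and 22.87 RPM in single embryos.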

How the data were processed

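3SEQ was performed on single whole N2 and F1 embryos. The authors mapped reads with Bowtie2 to mm9 and to a Cast genome, and deposited raw counts per gene, not normalized. They also deposited allele votes, which are estimated counts per gene and allele, and genotype codes from a hidden Markov model, used here as a score that names the genotype. The version of Bowtie2 and the use of strand in counting are not given in the sources used here. The members, lists and tests were chosen with earlier results of these data known.

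Groups were read from the code at *H2-K1*. Of 168 N2 columns, 8 without embryo labels, 6 embryos without genotypes and 1 without a call were not used, and 7 embryos had no somite number and were left out of the main fit. Counts were divided by the total per embryo (245220 to 5370322) to give RPM, and 5 RPM is about 11.5 reads at the median depth. Genes whose mean level reached 5 RPM were tested with edgeR 4.0.16 (robust quasi-likelihood, library totals, lane and somite number as covariates) at a Benjamini-Hochberg adjusted p under 0.05. The SE is the log2 difference over the square root of F. The embryos are separate animals of 29 litters. Alternatives covered TMM, DESeq2 1.42.0, limma 3.58.1, a rank-sum test after 15 principal components, filters, covariates, litter, flowcell, mother, depth and *H2-D1* code. The script was tested on simulated data.

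Single named genes were tested by permuting codes within lanes, after regression of log2(RPM + 1) on lane and somite number, 100000 times, two-sided. A permutation of codes over all genes together was not run. The predicted B6 share is 2 to the power of minus the log2 difference by the code at *H2-K1*, divided by 2. The F1 share was tested against 0.5 by flipping signs over all 16 embryos, with at least 20 votes per cross and a vote in every embryo. For F1 embryos the labels list 2 runs, and 1 column per embryo is in the tables.

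The rule for named genes took *H2-K1*, *H2-D1*, the 5 tested genes on each side, all tested class Ia, class Ib, class II and processing genes, the 20 called genes of chromosome 17 with the smallest p, called genes of other chromosomes, and 4 genes of each other list, of which 1 is not reported here. Genes outside it were named after their values were seen, among them *Eme2*, *Shd*, *Clpp*, *Rpl36*, *Mdfi*, *Fgd2*, *Cpne5*, *Rrp1b*, *Zfp945*, *Bzw1*, *Tap1*, *Tap2*, *C4a* and the class Ib genes below 5 RPM. Of the 47 called genes, 21 overlap another annotated gene in GENCODE vM1. Reads shared with near copies may affect *Kifc1*, *Rpl36*, *Cyp4f13*, *AA388235* and zinc finger genes, since the removal of repetitive genes described for the study was not repeated.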

Additional observations from a re-analysis of the deposited data

Results flagged for a closer look

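Of the F1 B6 shares of the named genes, 2 held an embryo far from the other 7 of its cross (Dixon's test at the 95% level). For *Kifc1*, 1 B6 × Cast embryo had a B6 share of 0.403 and the others 0.615 to 0.737. For *Noxo1*, 1 B6 × Cast embryo had 0.407 and the others 0.324 to 0.361. About 1 in 20 groups is marked in this way by chance, and 44 groups were examined.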

How the results depend on the processing

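The count of called genes on chromosome 17 was 47 in the fit as reported and 34 to 69 with TMM factors, with DESeq2, with limma, without the RPM minimum, with sex added, with litter in place of lane, with lane only in all genotyped embryos, without embryos under 1000000 reads, with the same code at *H2-K1* and *H2-D1*, and in flowcell 1 alone. It was 25 with a minimum of 20 RPM, 29 without covariates, 15 in flowcell 2 alone, 20 with B6 mothers alone, 19 with F1 mothers alone and 86 by the rank-sum test after 15 principal components, of which 46 were among the 47. The smaller sets test fewer genes or embryos, and the cause of the higher count was not tested. On other chromosomes 0 genes were called as reported and 1 with TMM factors, with DESeq2 and with lane only (*Bzw1* in each), 1 without covariates (*Cntd1*), 1 in flowcell 1 alone (*Slc46a1*) and 1 by the rank-sum test (*Cdc42ep4*). Every called gene with a value kept its sign under all 16 alternatives. *Glo1*, *Rsph1*, *Msh5*, *Spsb3*, *Mrpl14* and *AA388235* kept their call wherever they were tested. *Vps52*, *Wdr46* and *Zbtb12* lost theirs in each flowcell alone and in each backcross alone, *Vps52* also with litter in place of lane, *Tapbp* in flowcell 2 and with F1 mothers, and *Kifc1* without covariates. *Cnpy3* also lost its call in each backcross alone, *Cyp4f13* and *Ndufv3* with F1 mothers, and *Pla2g7*, *Treml1* and *Pknox1* with B6 mothers. *Noxo1* kept its call in 14 of 15 alternatives. Other called genes lost theirs in some alternatives too. *H2-K1* stayed between -0.11 and 0.079. No paired analysis was possible because the replicate numbers only name embryos in accession order, while lane and litter, which the labels do give, entered the fits as covariates. Genes near 5 RPM rest on few reads per embryo.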

Other observations

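Counting *H2-Q7* and *H2-Q9*, which share their count, separately, 24 genes of chromosome 17 below 5 RPM were called without that minimum. Among them *Psors1c2*, a gene of the class I framework, had 0.210 ± 0.403 RPM (SD) in B6/B6 and 0.701 ± 0.931 in heterozygous embryos, with a read in 23 of 80 and 36 of 66 embryos (log2 1.66, edgeR adjusted p = 9.33e-07). *H2-T22*, which shares its count with *H2-T9*, had 0.844 ± 1.41 and 0.378 ± 0.647 RPM and was not called (log2 -0.86, edgeR adjusted p = 0.306). *H2-M5* had 2.59 ± 2.11 and 1.95 ± 1.60 RPM (log2 -0.58, edgeR adjusted p = 0.396). Of the tested genes of chromosome 17, 14.8% had no F1 vote, beside 7.46% of those on other chromosomes, and within 25 genes of *H2-K1* the share was 59.3% (16 of 27).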
